A study of Homo sapiens with 9 samples.

Results

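The 10 tubulin genes described here were chosen by name (TUBA1A, TUBA1B, TUBA1C, TUBB, TUBB2A, TUBB2B, TUBB3, TUBB4B, TUBB6 and TUBG1), with earlier results of these data known, out of 61544 genes in the deposited tables. All 10 passed the filter on low counts, as did 14727 genes in all. RNA came from HMC3, an immortalized human microglia line of wild-type genotype, in 9 libraries of polyadenylated RNA with 3 per group. According to the paper, SV40T immortalized the line and disturbs its p53 and Rb pathways. Cells received vehicle (DMSO, the VEH group) or the SLO cocktail for 6 days. The cocktail joins SBI-0206965, which inhibits ULK1 and with it autophagy, with O-151, an inhibitor of a DNA glycosylase, and Lopinavir, a protease inhibitor that blocks the maturation of lamin A. SLO cells had 10 µM of SBI-0206965 with 1 µM of each of the others, and SLO ½ cells had 5 µM with 0.5 µM of each. The compounds were given together, so the data cannot tell apart what each of them did. The comparison asked which tubulin isotypes changed with the cocktail, in which direction, and whether the change was graded with the dose. Since the genes were picked with results in view, their values are a description. No p-value is printed for them, and whether they passed a threshold is part of that description.

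Microtubules are built from dimers of α- and β-tubulin, each of which is encoded by several genes (isotypes) that differ in their tissue of expression. In dividing cells TUBA1B, TUBA1C, TUBB and TUBB4B are the usual abundant isotypes, while TUBA1A, TUBB2A, TUBB2B and TUBB3 are best known from neurons. TUBG1 encodes γ-tubulin, which sits in the ring complex that starts new microtubules. Tubulin mRNA is also under autoregulation: free dimer triggers decay of tubulin mRNA that is being translated, through the ribosome-bound factor TTC5, which reads the first residues of the new chain.

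Several of the isotypes are near-identical in sequence, which bears on their values, since reads that matched several places were not counted. The first 30 coding bases of each gene show this, and in the α and β genes they hold the codons read in autoregulation. They were taken from GENCODE v44 transcripts on GRCh38, 5′ to 3′, with the first 4 codons in capitals.
TUBA1A: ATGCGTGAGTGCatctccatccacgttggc
TUBA1B: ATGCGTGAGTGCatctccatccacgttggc
TUBA1C: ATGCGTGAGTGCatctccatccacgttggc
TUBB: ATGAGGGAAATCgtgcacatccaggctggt
TUBB2A: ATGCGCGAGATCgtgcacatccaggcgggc
TUBB2B: ATGCGTGAGATCgtgcacatccaggcgggc
TUBB3: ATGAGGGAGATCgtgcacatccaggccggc
TUBB4B: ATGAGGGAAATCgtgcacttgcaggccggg
TUBB6: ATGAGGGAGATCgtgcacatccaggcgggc
TUBG1: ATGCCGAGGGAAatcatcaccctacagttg
The 3 α genes were identical over these bases, the β genes shared most of them, and TUBG1 stood apart.

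Near-identity ran through whole coding sequences. TUBB2A and TUBB2B shared 98.1% of aligned coding bases, TUBA1A and TUBA1B 97.2%, TUBA1B and TUBA1C 96.8%, and TUBA1A and TUBA1C 95.9%. Between other β genes the share was lower, as in TUBB and TUBB4B with 84.4%. The last 60 coding bases, which encode the acidic C-terminal tail where isotypes usually differ most, are shown for the closest pair, with capitals at the bases that differ.
TUBB2A: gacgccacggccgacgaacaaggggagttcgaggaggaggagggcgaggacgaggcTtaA
TUBB2B: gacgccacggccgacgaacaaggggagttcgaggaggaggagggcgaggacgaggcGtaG
TUBB2A and TUBB2B had 2 differences in the stretch and 25 in 1338 coding bases.

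For each gene, the canonical spliced transcript was searched for stretches with no exact copy elsewhere in the chromosomes or in transcripts of genes outside its locus. TUBA1A and TUBA1C overlap in locus, so neither was searched against the spliced transcripts of the other. Stretches of 50 and 100 bases were used, since the read length is not given in the sources used here. At 50 bases the share found nowhere else was 35.4% for TUBB2A, 37.3% for TUBA1B, 45.1% for TUBB2B and 51.9% for TUBA1A. It was 73.4% for TUBA1C, 76.6% for TUBB, 88.8% for TUBB4B and 98.9% for TUBB6. Aligners also accept near matches, which an exact search does not count. At 100 bases the shares were 44.4% for TUBB2A, 62.8% for TUBA1B and 78.9% for TUBA1A. Levels of the low-share genes are therefore set by fewer countable positions, and levels between isotypes are compared below only with that limit.

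**Figure D1:**
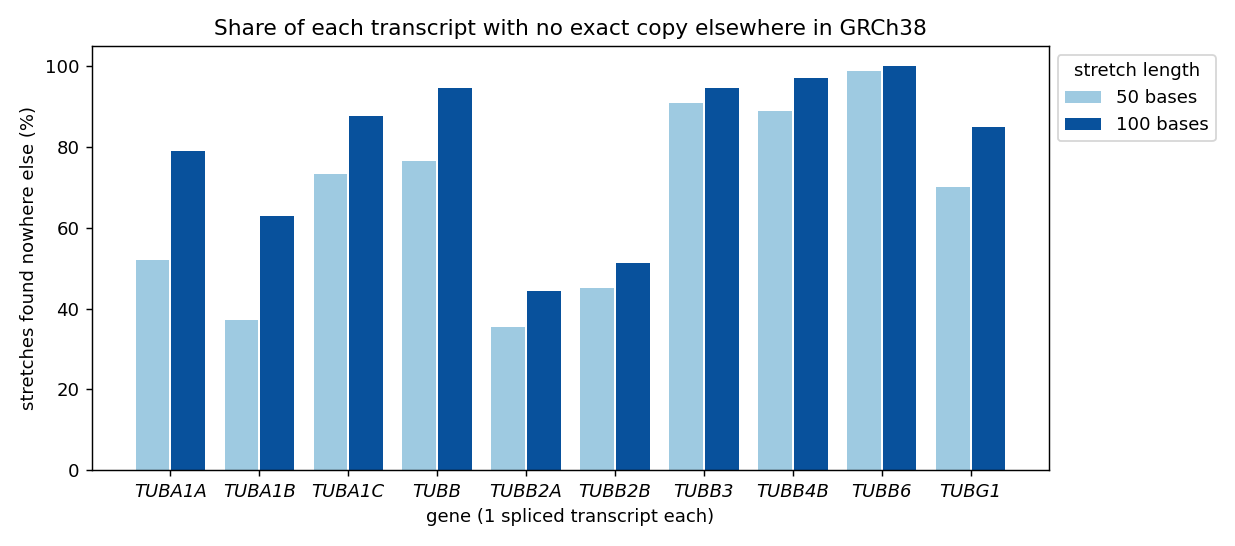
Share of each gene's canonical spliced transcript, in percent of all stretches of 50 bases (light bars) or 100 bases (dark bars), that had no exact copy elsewhere in GRCh38 or in transcripts of genes outside its own locus. TUBB2A and TUBB2B had the lowest shares at 100 bases (44.4% and 51.3%), and TUBB6 reached 100%.

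The libraries held 14834295 to 19674841 reads on genes. Reads that matched several places made up 8.35% to 8.52% of all reads with VEH, 7.83% to 7.95% with SLO ½ and 7.16% to 7.31% with SLO, and their part in the results was not tested. The cell type label was checked against markers. All 11 microglial markers averaged under 1 CPM (reads scaled to the library total after TMM normalization) in each group, with P2RY12, C1QA and TYROBP at 0 counts in all 9 libraries, and their summed level ran from 0.46 to 0.731 CPM in VEH and from 1.71 to 1.94 CPM in SLO. Of 8 mesenchymal markers 5 were above that level, with COL1A1 at 2368 CPM and VIM at 1901 CPM in VEH. The 4 astrocyte markers summed to between 2.10 and 2.79 CPM in VEH and between 1.80 and 2.35 CPM in SLO, from ALDH1L1 mainly. In bulk RNA, fewer cells of a type and less RNA per cell cannot be told apart. The labels do not say that replicates were separate cultures, so the errors measure the spread between these libraries, which may be technical.

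In SLO against VEH, 6 of the 10 genes rose, 3 fell and TUBG1 did not pass the threshold (adjusted p under 0.05, edgeR quasi-likelihood test over all genes). Across all genes tested, 32.9% were called higher and 32.1% lower in this comparison. In SLO ½ against VEH, 5 rose and 2 fell, where the background was 26.7% higher and 25.3% lower. In SLO against SLO ½, 4 rose and 3 fell, where the background was 20.8% and 20.3%. The 3 libraries of each group did not overlap in CPM for 8 of the 10 genes in SLO against VEH (66.7% of all genes), 8 in SLO ½ against VEH (58.3%) and 8 in SLO against SLO ½ (51.0%). With so many genes changed, these counts set nothing apart about the tubulins. The comparisons with VEH share the same 3 VEH libraries.

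**Figure D2:**
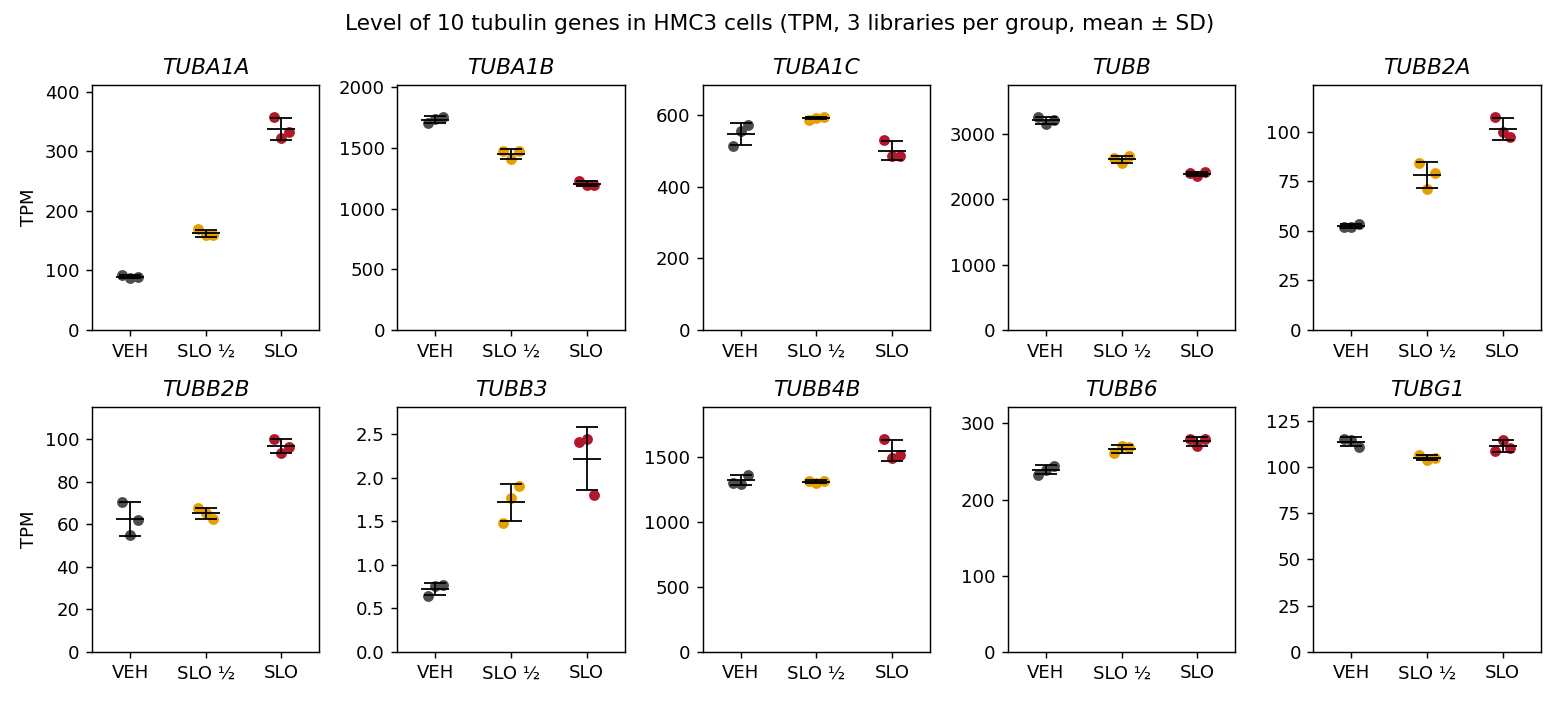
Level of each of the 10 tubulin genes in TPM (counts scaled for gene length and library total, linear axes from 0), with 1 point per library, 3 libraries per group, and bars at the mean ± SD. TUBA1A rose from 89.5 to 337.5 TPM on average between VEH and SLO, TUBA1B and TUBB fell at each dose, and TUBG1 ran from 104 to 115 TPM over all libraries.

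Among the α genes, TUBA1A had the largest change of the 10 in SLO against VEH, while in SLO ½ against VEH that of TUBB3 was larger. It lies at chr12:49184686-49189080 on the minus strand. On the TPM scale, in which counts are scaled for gene length and library total, TUBA1A stood at 92.4, 87.4 and 88.6 in VEH, at 168.6, 158.6 and 159.5 in SLO ½, and at 357.5, 322.7 and 332.2 in SLO. The groups were fully separated and stepped up with the dose. Its log2 fold change was 0.90 ± 0.047 (SE) in SLO ½ and 1.92 ± 0.046 in SLO against VEH, and 1.02 ± 0.043 between the doses. Of the 14727 genes tested, 472 had a log2 fold change of this size or more, in either direction, in SLO against VEH. By TPM its rank among all genes moved from 2348 in VEH to 403 in SLO.

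TUBA1B, the main α isotype of these cells, went the other way. It lies 53288 bases from TUBA1A, at chr12:49127782-49131397 on the same strand. Exons of the antisense RNA TUBA1B-AS1 cover 72.6% of its transcript on the opposite strand, with 49 to 126 counts in the 9 libraries. TUBA1B stood at 1706, 1743 and 1757 TPM in VEH, at 1475, 1407 and 1479 in SLO ½, and at 1229, 1192 and 1197 in SLO. Every SLO ½ library was below every VEH library, and every SLO library was below those. Its log2 fold change was -0.21 ± 0.038 in SLO ½ and -0.52 ± 0.038 in SLO against VEH. With both changes, TUBA1B exceeded TUBA1A by 19.4 ± 0.824 times (SD, n = 3) in VEH, by 8.97 ± 0.276 times in SLO ½ and by 3.58 ± 0.131 times in SLO, on the TPM scale. The size of these ratios is limited by countable positions. At 50 bases 37.3% of TUBA1B and 51.9% of TUBA1A stretches were found nowhere else.

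TUBA1C was not graded with the dose. It lies at chr12:49188736-49274600 on the plus strand, and 345 bases of its annotated 5′ end overlap TUBA1A on the opposite strand. TUBA1C stood at 513.5, 555.7 and 573.2 TPM in VEH, at 587.3, 591.9 and 594.7 in SLO ½, and at 530.0, 486.6 and 485.7 in SLO. SLO ½ was the highest group, and VEH and SLO overlapped. The fitted log2 fold change was 0.15 ± 0.043 in SLO ½ against VEH, -0.12 ± 0.043 in SLO against VEH and -0.27 ± 0.043 in SLO against SLO ½, each of which passed the threshold. The call in SLO against VEH was lost without VEH replicate 3 (-0.09), without SLO replicate 2 (-0.10) or without SLO replicate 3 (-0.10), and under scaling by library size alone (-0.05). The call in SLO ½ against VEH was lost under limma on TPM (0.11).

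The upstream sequence of the α pair with opposite changes was compared, since both genes sit in the same cluster on chromosome 12. The windows are the 250 bases before the RefSeq start site (GRCh38.p14, minus strand, 5′ to 3′ of the gene), with CCAAT, the TATAAA of a TATA box, and the TTTGAA of a cell cycle homology element in capitals on either strand.
TUBA1A, chr12:49189081-49189330: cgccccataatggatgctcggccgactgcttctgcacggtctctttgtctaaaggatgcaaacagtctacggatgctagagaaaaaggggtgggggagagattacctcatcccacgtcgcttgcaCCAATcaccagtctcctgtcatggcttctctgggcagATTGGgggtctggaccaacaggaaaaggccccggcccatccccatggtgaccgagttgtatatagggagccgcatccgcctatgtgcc
TUBA1B, chr12:49131396-49131645: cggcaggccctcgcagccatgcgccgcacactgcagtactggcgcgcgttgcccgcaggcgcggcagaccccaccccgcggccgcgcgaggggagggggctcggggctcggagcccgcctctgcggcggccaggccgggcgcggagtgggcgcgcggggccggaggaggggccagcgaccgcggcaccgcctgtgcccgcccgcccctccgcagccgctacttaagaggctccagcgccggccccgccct
The TUBA1A window held 2 CCAAT letters, 1 on each strand, and 56.4% G and C. The TUBA1B window held none of the 3 motifs and 81.2% G and C. CCAAT was present in 32.0% of 35116 windows of this length, TATAAA in 10.7% and TTTGAA in 13.3%. Of 15 windows listed for the 10 tubulin genes, 10 held CCAAT, 1 held TATAAA (TUBB2A) and 3 held TTTGAA (TUBA1C, where it is in 2 windows, and TUBB4B). Some genes have more than 1 window, and 2 overlapping TUBA1C windows hold the same CCAAT, so these counts are not of independent sequences. A match describes letters and was not tested as a binding site.

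Among the β genes, TUBB had the highest TPM of the tubulin genes described and fell. At 50 bases 76.6% of TUBB stretches were found nowhere else, against 37.3% of TUBA1B stretches. Whether TUBB RNA was also the most abundant was not tested. TUBB lies at chr6:30717435-30725538 on the plus strand. TUBB stood at 3261, 3145 and 3217 TPM in VEH, at 2624, 2551 and 2663 in SLO ½, and at 2406, 2355 and 2414 in SLO. The 3 groups did not overlap and stepped down with the dose. The log2 fold change was -0.25 ± 0.039 in SLO ½ and -0.42 ± 0.039 in SLO against VEH. Its rank by TPM among all genes was 22 in VEH and 25 in SLO.

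TUBB4B (chr9:137241287-137243707, plus strand), the second abundant β isotype, rose at the full dose. TUBB4B stood at 1301, 1294 and 1364 TPM in VEH, at 1317, 1299 and 1319 in SLO ½, and at 1643, 1495 and 1515 in SLO. SLO ½ overlapped VEH, and SLO was above both. Against VEH, the log2 fold change was 0.24 ± 0.041 in SLO, and 0.03 ± 0.041 in SLO ½, which did not pass the threshold. TUBB4B therefore passed TUBA1B in the order of TPM. TUBA1B was above it in VEH and SLO ½ and below it in SLO, with no overlap of libraries in any group. The crossing holds for TPM alone, since these genes differ in countable positions. At 50 bases 37.3% of TUBA1B stretches were found nowhere else, against 88.8% of TUBB4B stretches. Whether the RNA levels crossed was not tested.

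TUBB2A and TUBB2B, the near-identical pair on chromosome 6, both rose in SLO, and TUBB2A also passed the threshold in SLO ½, a difference between the genes that was not tested. TUBB2A (chr6:3153497-3157544, minus strand) stood at 51.8, 51.9 and 53.4 TPM in VEH, at 84.3, 71.3 and 79.5 in SLO ½, and at 107.5, 99.8 and 97.2 in SLO. Its groups were separated and graded, with a log2 fold change of 0.62 ± 0.060 in SLO ½ and 0.96 ± 0.059 in SLO against VEH. TUBB2B (chr6:3223324-3231730, minus strand) stood at 70.5, 54.8 and 62.0 TPM in VEH, at 67.6, 65.3 and 62.6 in SLO ½, and at 100.3, 93.8 and 96.5 in SLO. SLO ½ lay inside the range of VEH, and SLO was above both. Its log2 fold change was 0.10 ± 0.064 in SLO ½ and 0.64 ± 0.062 in SLO against VEH. Without VEH replicate 1, the highest VEH library, the SLO ½ value was 0.20 and passed the threshold. The ratio of TUBB2A to TUBB2B in TPM was 0.848 ± 0.107 (SD, n = 3) with VEH, 1.20 ± 0.0964 with SLO ½ and 1.05 ± 0.0354 with SLO. Within the coding part, 21.5% (TUBB2A) and 20.2% (TUBB2B) of 50-base stretches were found nowhere else, and outside it 100% were, so that a read inside the coding part could often not be assigned to either gene.

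TUBB6 (chr18:12307669-12344320, plus strand), a broadly expressed isotype, rose at both doses. TUBB6 stood at 232.8, 239.4 and 244.5 TPM in VEH, at 260.9, 270.1 and 269.3 in SLO ½, and at 280.0, 269.8 and 279.4 in SLO. VEH was below both treated groups, which overlapped each other. Against VEH, the log2 fold change was 0.20 ± 0.039 in SLO ½ and 0.22 ± 0.039 in SLO, and 0.02 ± 0.039 between the doses.

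TUBB3, the class III isotype used as a neuronal marker, rose from a few reads. It lies at chr16:89921392-89938761 on the plus strand. The libraries held 16, 18 and 23 reads in VEH, 42, 51 and 51 in SLO ½, and 63, 66 and 43 in SLO. Both treated groups were above VEH and overlapped each other. The log2 fold change against VEH was 1.29 ± 0.22 in SLO ½ and 1.63 ± 0.21 in SLO, and 0.35 ± 0.18 between the doses, which did not pass the threshold. Its level cannot be set against the other isotypes. A protein-coding gene that the tables list only by identifier (ENSG00000198211) overlaps TUBB3 on the same strand, and its exons cover 92.8% of the canonical TUBB3 transcript, leaving 122 of 1706 bases. That gene had 0 counts in all 9 libraries, and the other 9 tubulin genes had no such same-strand overlap. STAR assigns no read that falls in exons of both genes, so most TUBB3 bases could give no counts if the annotation used held both as listed.

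Neuronal markers were read beside TUBB3. The 9 markers summed to between 7.89 and 9.13 CPM in VEH, between 12.7 and 13.8 in SLO ½ and between 14.95 and 17.7 in SLO, most of it from SNAP25 and SYT1. ELAVL3 had 0 counts in VEH and averaged 1.40 CPM in SLO. DCX, STMN2 and ELAVL4 were at 0 counts in all 9 libraries, and RBFOX3 was under 1 CPM in each group. The part of this change in the TUBB3 result was not tested.

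TUBG1 (chr17:42609641-42615238, plus strand), the γ-tubulin of the ring complex, was the only gene of the 10 that passed the threshold in no comparison. TUBG1 stood at 115.5, 114.8 and 110.9 TPM in VEH, at 106.6, 103.7 and 105.1 in SLO ½, and at 108.7, 115.0 and 110.2 in SLO. SLO ½ lay below both other groups, while VEH and SLO overlapped. The log2 fold change was -0.07 ± 0.042 in SLO ½ and -0.02 ± 0.042 in SLO against VEH.

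**Figure D3:**
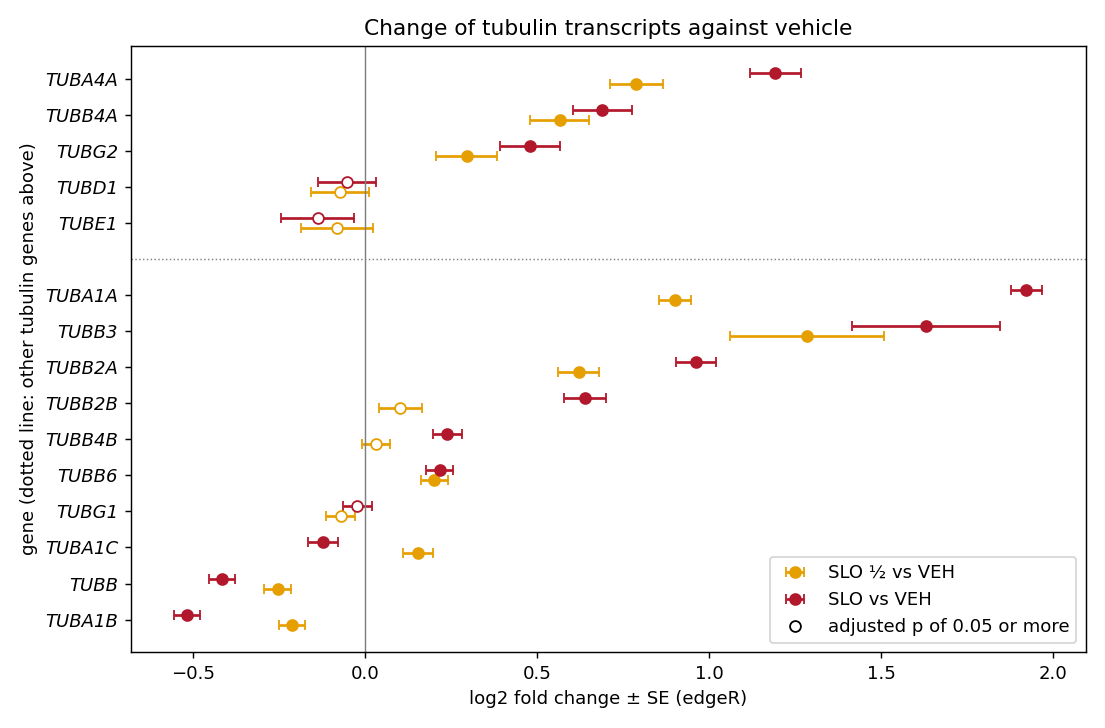
Log2 fold change ± SE against VEH of the 10 tubulin genes (lower part) and the 5 other tubulin genes tested (upper part), for SLO ½ (orange) and SLO (red). Open circles have an adjusted p of 0.05 or more. TUBA1A (1.92 in SLO) and TUBA1B (-0.52) mark the ends of the range among the 10.

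In the order of levels by TPM within a group, neighbours did not overlap in VEH or SLO ½. This order carries the limit on countable positions given above. In SLO, TUBB2A and TUBB2B overlapped and the other neighbours did not. TUBA1A moved from the place after TUBG1 in VEH to the place before TUBB6 in SLO. TUBB3 was last in each group, with the limit on its counts given above.

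The makeup of the α pool shifted from TUBA1B to TUBA1A. Shares were taken as a gene's TPM over the summed TPM of the 10 α genes looked for, and are given as mean ± SD with n = 3 and no test. These shares, and the β shares below, carry the limit on countable positions given above. TUBA1B made up 72.5% ± 0.572 of α-tubulin TPM with VEH, 64.8% ± 0.478 with SLO ½ and 57.7% ± 0.815 with SLO. TUBA1A made up 3.74% ± 0.190, 7.24% ± 0.202 and 16.1% ± 0.38 in the same order. TUBA1C made up 22.9% ± 0.762, 26.4% ± 0.604 and 23.9% ± 0.474, and was highest at the lower dose. The summed α-tubulin TPM ran from 2332 to 2440 with VEH, from 2188 to 2269 with SLO ½ and from 2049 to 2165 with SLO, with no overlap.

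The β pool shifted from TUBB to TUBB4B. TUBB made up 65.5% ± 0.601 of β-tubulin TPM with VEH, 59.9% ± 0.331 with SLO ½ and 53.8% ± 0.981 with SLO. TUBB4B made up 27.0% ± 0.575, 30.1% ± 0.246 and 34.9% ± 0.968, so that its share was higher in SLO ½ than in VEH while its level overlapped. TUBB6 made up 4.88% ± 0.142, 6.12% ± 0.179 and 6.22% ± 0.0872. TUBB2A went from 1.07% ± 0.0168 in VEH to 2.28% ± 0.0820 in SLO, and TUBB2B from 1.27% ± 0.145 to 2.18% ± 0.0185. The summed β-tubulin TPM ran from 4801 to 4957 in VEH, from 4280 to 4418 in SLO ½ and from 4340 to 4565 in SLO, so that the treated groups overlapped below VEH. Tubulin pseudogenes held at most 65 counts in any library over the 16 α symbols found, and at most 37 over the 35 β symbols.

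**Figure D4:**
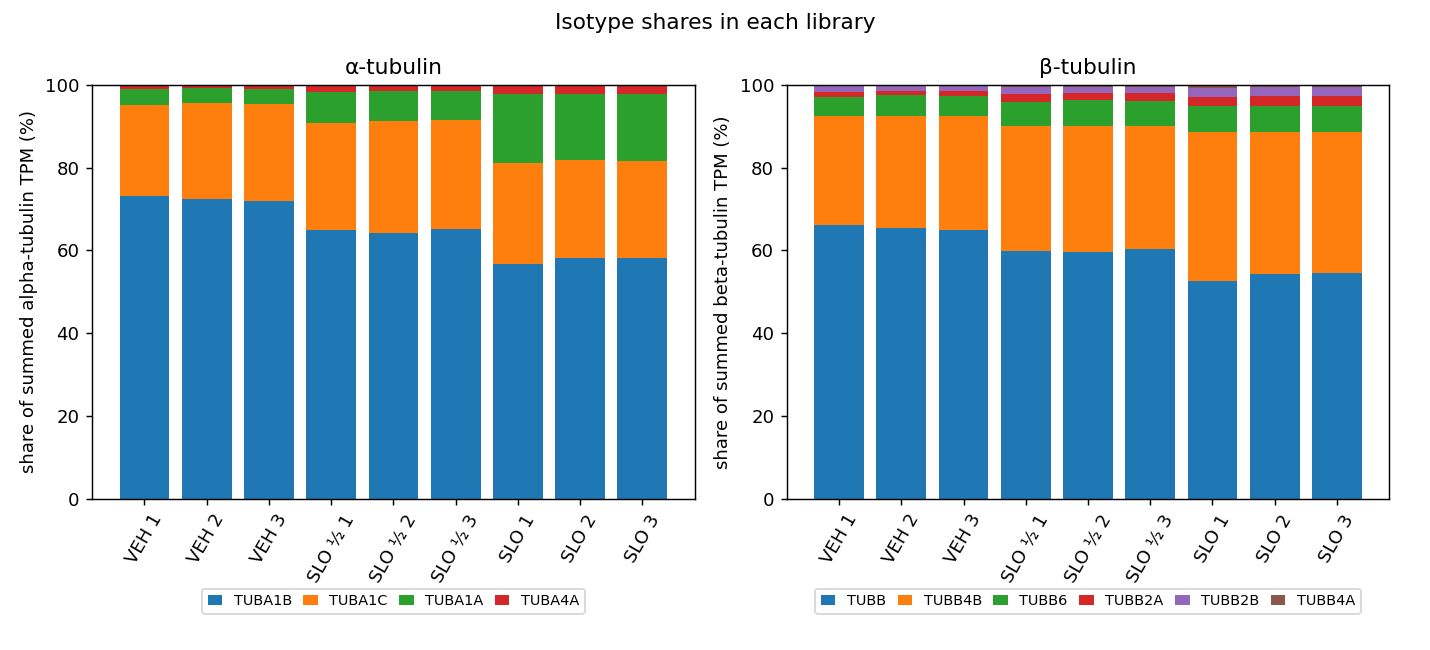
Share of each isotype in the summed TPM of α-tubulin (left) and β-tubulin (right), in percent, with 1 stacked bar per library and isotypes above 0.1% on average shown. TUBA1A grew from 3.74% to 16.1% of α-tubulin, and TUBB fell from 65.5% to 53.8% of β-tubulin, between VEH and SLO.

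Of 14 other tubulin genes, 5 had enough counts to be tested. Adjusted p-values for these and the genes below are from edgeR's quasi-likelihood test with Benjamini-Hochberg adjustment over all genes. Their lists were also chosen with earlier results known, and the p-values take no account of that choice. TUBA4A, an α isotype best known from platelets, muscle and brain, rose from 16.1 CPM with VEH to 27.8 with SLO ½ and 36.8 with SLO (log2 fold change 1.19 ± 0.074 in SLO against VEH, adjusted p = 2.2e-14). TUBB4A, a brain isotype, rose from 10.6 to 15.7 and 17.1 CPM (0.69 ± 0.085, adjusted p = 4.0e-08). TUBG2, the second γ-tubulin gene, rose from 19.3 to 23.6 and 26.8 CPM (0.48 ± 0.087, adjusted p = 2.1e-05). TUBD1 and TUBE1, the δ- and ε-tubulins of centrioles, had log2 fold changes of -0.05 ± 0.084 and -0.14 ± 0.11 that did not pass, although TUBE1 passed without SLO replicate 2 (-0.28). TUBA3C, TUBA3D, TUBA3E and TUBAL3 had 0 counts in all 9 libraries, where a count of 0 allows up to 3 countable reads per library. TUBA4B, TUBA8, TUBB1, TUBB8 and TUBB8B had at most 3. Countable positions were not measured for these genes. Since reads that matched several places were not counted, such low counts do not bound their RNA.

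The genes that fold tubulin mostly fell in SLO. This list and those below were chosen with earlier results of these data known, so their counts beside all genes are a description. The shares over all genes are not matched to the expression level of a list. New tubulin chains pass from prefoldin to the chaperonin CCT and then to the tubulin cofactors. Of 23 such genes tested, 16 fell, 3 rose and 4 did not pass in SLO against VEH, with a median log2 fold change of -0.36 where the median of all genes was 0.01. Among all genes 32.1% were called lower and 32.9% higher. In SLO ½ against VEH, 12 fell and 3 rose, where 25.3% of all genes were lower and 26.7% higher. The 4 with the smallest p were CCT subunits. CCT5 went from 715.4 CPM with VEH to 643.6 with SLO ½ and 458.6 with SLO (log2 fold change -0.64 ± 0.040, adjusted p = 2.2e-14). CCT8 (-0.56 ± 0.040), CCT4 (-0.57 ± 0.041) and CCT7 (-0.55 ± 0.043) fell too. The 3 that rose were named after their values were seen. They were TBCD (0.16), a cofactor that holds β-tubulin, TBCEL (0.46), which destabilises tubulin, and the prefoldin subunit PFDN5 (0.62). With VEH, PFDN5 averaged 6.91 CPM, and PFDN2, the next lowest prefoldin subunit, averaged 36.6. Whether all reads of PFDN5 could be counted was not tested. TBCE has 2 identifiers in the tables, of which the more abundant was used.

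All 4 genes of the autoregulation list, chosen with earlier results known, fell in SLO against VEH, where 32.1% of all genes did. TTC5, the factor that reads the nascent chain, went from 28.4 CPM with VEH to 23.2 with SLO ½ and 23.6 with SLO (log2 fold change -0.27 ± 0.070 in SLO, adjusted p = 0.0014). SCAPER, its adaptor, went from 34.5 to 28.5 and 30.1 CPM (-0.19 ± 0.074, adjusted p = 0.024). The deadenylase subunits CNOT11 (-0.41 ± 0.053, adjusted p = 8.8e-08) and CNOT1 (-0.36 ± 0.039, adjusted p = 4.4e-09) fell as well. SCAPER did not pass without VEH replicate 1 (-0.08) or without SLO replicate 2 (-0.15), nor under scaling by library size alone (-0.12).

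Genes of tubulin modification moved in both directions. Of 22 tested, 9 rose, 4 fell and 9 did not pass, with a median of 0.09, where 32.9% of all genes were called higher and 32.1% lower. TTLL7, a polyglutamylase of β-tubulin, was at 10.7 CPM in VEH and 11.9 in SLO ½, and at 21.8 in SLO (1.03 ± 0.084, adjusted p = 1.0e-11). TTLL1, the catalytic subunit of another polyglutamylase, rose from 2.86 to 4.61 and 8.93 CPM (1.67 ± 0.16, adjusted p = 3.6e-10). SIRT2, a deacetylase that acts on α-tubulin, rose (0.71 ± 0.070, adjusted p = 5.9e-10). The deglutamylase AGBL5 fell (-0.54 ± 0.058, adjusted p = 2.3e-09), as did TTLL5 (-0.41), TTLL12 (-0.52) and the tubulin deacetylase HDAC6 (-0.34), the last 3 named after their values were seen.

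Around γ-tubulin, 11 ring complex and augmin genes were lower, 4 higher and 5 not passing of 20 tested, with a median of -0.20, where 32.1% of all genes were lower and 32.9% higher. TUBGCP4 went from 90.1 CPM with VEH to 62.6 with SLO ½ and 54.3 with SLO (-0.73 ± 0.048, adjusted p = 7.7e-14). The ring subunit TUBGCP3 (-0.65 ± 0.060), the ring activator CDK5RAP2 (-0.57 ± 0.045) and the small ring component MZT2B (-0.82 ± 0.10) fell too. The 4 that rose, named after their values were seen, were PCNT (0.12), TUBGCP5 (0.12), TUBGCP6 (0.32) and HAUS3 (0.34). That count was 2 without VEH replicate 3 and 2 without SLO replicate 2.

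Genes of microtubule dynamics were split, with 10 higher, 10 lower and 15 not passing of 35 tested, and a median of -0.05. These shares are close to the 32.9% higher and 32.1% lower of all genes tested and are no result about the list. MAPRE2, an end-binding protein, rose from 14.3 CPM with VEH to 26.4 with SLO ½ and 45.7 with SLO (1.67 ± 0.075, adjusted p = 1.4e-17). MAP1B, a microtubule-associated protein of growing axons, rose from 444.4 to 540.4 and 1021 CPM (1.20 ± 0.065, adjusted p = 1.1e-15). MAP2, best known from dendrites, had 3, 0 and 3 reads in VEH, 16, 14 and 15 in SLO ½ and 45, 48 and 47 in SLO (4.51 ± 0.38, adjusted p = 1.8e-11). The depolymerising kinesin KIF2A fell from 216.5 to 157.1 and 144.7 CPM (-0.58 ± 0.042, adjusted p = 6.3e-13).

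Proliferation genes were read beside the tubulins, since the mitotic spindle is a main user of the abundant isotypes. Of 20 tested, 18 fell, 1 rose and 1 did not pass in SLO against VEH, with a median of -0.47, where 32.1% of all genes fell and 32.9% rose. In SLO ½ against VEH 14 fell, where 25.3% of all genes did. MKI67 went from 1472 CPM with VEH to 962.4 with SLO ½ and 791.6 with SLO (-0.89 ± 0.052, adjusted p = 6.4e-15), and MCM6 (-1.02 ± 0.042), CCNB1 (-0.78 ± 0.040) and AURKA (-0.66 ± 0.043) fell too. PCNA (0.10) rose, a call lost without VEH replicate 2, VEH replicate 3, SLO replicate 1 or SLO replicate 3, and CDK1 (0.02) did not pass, both named after their values were seen. Of the abundant isotypes, TUBA1B (-0.52), TUBB (-0.42) and TUBA1C (-0.12, with libraries that overlapped) fell in SLO against VEH, while TUBB4B (0.24) rose. In SLO ½ against VEH, TUBA1C (0.15) rose. The part of the proliferation change in these values was not tested.

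**Figure D5:**
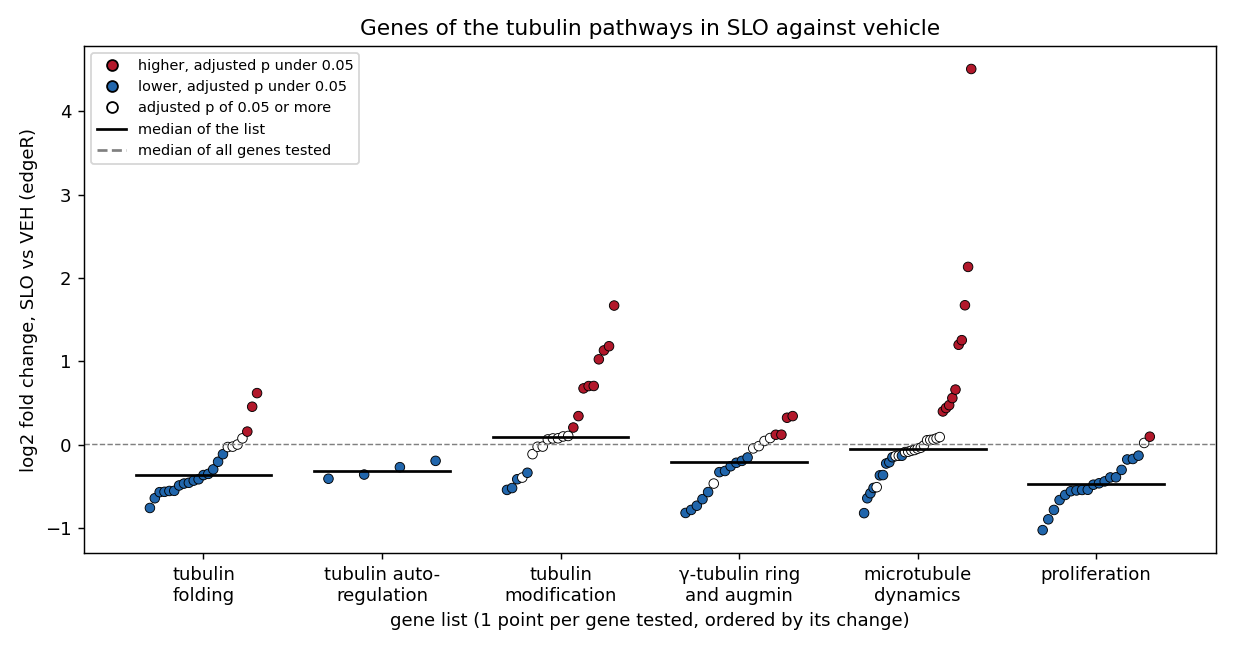
Log2 fold change in SLO against VEH of each tested gene in 6 lists (1 point per gene, red higher, blue lower, white adjusted p of 0.05 or more), with a black line at each list's median and a dashed line at the median of all genes tested (0.01). The folding (-0.36), autoregulation (-0.31), ring complex and augmin (-0.20) and proliferation (-0.47) medians lie below the dashed line, and points of the modification and dynamics lists spread to both sides.

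The genes most like TUBA1A and TUBA1B were sought among 9194 genes with at least 10 CPM on average, by Pearson's r of log2 CPM over the 9 libraries, which share the 3 group steps. For TUBA1A they were CLU (r = 0.999), which encodes the secreted chaperone clusterin and went from 19.5 CPM with VEH to 44.9 with SLO ½ and 118.6 with SLO, APLP2 (r = 0.999), a relative of the amyloid precursor, and MAN2B2 (r = 0.998), a lysosomal mannosidase. For TUBA1B they were CCBE1 (r = 0.999), a secreted factor of lymphatic growth that went from 280.6 to 162.8 and 75.6 CPM, XRCC6 (r = 0.998), the Ku70 subunit of DNA end joining, and MRPL3 (r = 0.998), a mitochondrial ribosomal protein. With such group steps a high r was common: 769 genes had r over 0.95 with TUBA1A and 889 with TUBA1B.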

How the data were processed

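RNA sequencing of 9 HMC3 libraries (VEH, SLO ½ and SLO, 3 each, grouped by the GEO labels) was analysed from the deposited gene tables. The authors trimmed reads with Trimmomatic 0.38 and aligned them to GRCh38 with STAR 2.7.1a. The authors deposited raw read counts per gene, which come from STAR and are stranded per the deposited file names, and TPM values. Within a gene, count over scaled TPM was constant to 0.00077%, so 1 length per gene was used. Reads that matched several places or fell in several genes were not assigned, which affects near-identical tubulins and, in TUBB3, a same-strand overlap. The annotation release is not given in the sources used here. Coordinates of the 10 genes equal those in GENCODE v44. No sample column was left unused.

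Counts were scaled by TMM, and genes with low counts were removed by filterByExpr. The quasi-likelihood test of edgeR 4.0.16 (R 4.3.3) was fitted over all 3 groups, with Benjamini-Hochberg adjustment over 14727 genes and a threshold of 0.05. The script was tested on simulated data. Standard errors are the fold change over the square root of the F statistic. The library totals on genes were 14834295 to 19674841 reads. Alternatives were DESeq2 1.42.0 and its size factors, scaling by library size alone, other filters, 2-group fits, a replicate block, limma 3.58.1 on log2(TPM + 1) or log2(TPM + 0.1), and leaving out each library. Sequences came from GENCODE v44 and, for promoters, RefSeq (GRCh38.p14). Coding sequences were aligned with Biopython 1.88. The end of the coding sequence of some genes is not reported here.

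The members and lists were chosen with earlier results of these data known. The rule for named genes took all 10 members, other tubulin genes with at least 10 counts in a library, the 4 smallest p-values of each pathway list in SLO against VEH, and the 3 genes most correlated with the members of largest rise and fall. Marker genes are named as checks, and other exceptions are marked where they are named.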

Additional observations from a re-analysis of the deposited data

How the results depend on the processing

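Across all alternatives, the member fold changes kept direction and side of the threshold in 460 of 480 values, with 9 that lost a call, 5 that gained a call and 6 that changed sign. The sign changes were in values near 0 and none was called: TUBG1 in SLO against VEH under scaling by library size alone (0.052) and with at least 10 counts in every library (0.0010), TUBB4B in SLO ½ against VEH under the 3 limma fits (-0.0090), and TUBB6 between the doses without SLO ½ replicate 1 (-0.0051, in a range of -0.0051 to 0.038 over the libraries left out). TUBD1 in SLO against VEH also turned under scaling by library size alone (0.022). TUBG1 in SLO ½ against VEH passed the threshold under limma on TPM (-0.11), where TUBA1C was lost (0.11). TUBB between the doses was lost under unfiltered limma (-0.13). TUBB3 in SLO against VEH was 0.90 under limma on log2(TPM + 1), a scale that understates low genes. Genes called lower in SLO against SLO ½ numbered 1773 under unfiltered limma, and the cause was not tested.

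The ring complex and augmin genes called higher numbered 2 under DESeq2, without an expression filter, with only the 2 groups compared and under unfiltered limma, and from 2 to 4 with a library left out. Proliferation genes called higher numbered 2 under scaling by library size alone, 0 without an expression filter, with only the 2 groups compared and under each limma fit, and from 0 to 1 with a library left out. Other tubulin genes called lower numbered from 0 to 1 with a library left out. The cause of these changes was not tested.

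Isotype shares moved when counts replaced TPM, by construction, since counts grow with length. In VEH, SLO ½ and SLO in turn, shares of counts were 68.5%, 60.6% and 53.9% for TUBA1B, 26.9%, 30.7% and 27.9% for TUBA1C, 76.1%, 71.2% and 65.9% for TUBB, 15.7%, 17.9% and 21.4% for TUBB4B, 5.49%, 7.04% and 7.37% for TUBB6, 0.888%, 1.52% and 2.00% for TUBB2A, 1.51%, 1.81% and 2.73% for TUBB2B, and 0.0311%, 0.0852% and 0.112% for TUBB3. With the members alone in the sum, TUBA1B was 73.2%, 65.9% and 59.0%, and TUBA1C in SLO was 24.5%. Pseudogenes in the sum moved no share by more than its SD.

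Same-numbered libraries of different groups had correlations of their deviations from 0.0028 to 0.0873. Differently numbered libraries of different groups had values from -0.0621 to 0.0370. In 11 of 18 cases a library was closest to its own number among the 3 libraries of another group. These values do not settle whether the numbers mark pairs. The numbers were not taken as pairs in the main fit, since the labels do not say that a number marks a shared batch. With a replicate block, 4877 genes were called higher and 4745 lower in SLO against VEH, 6 and 3 of them members, and no call of a member changed. Folding genes called lower numbered 15 with the block. TUBB3, with few reads per library, carries the largest errors among the 10 members.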
